A study of Mus musculus with 6 samples.

Results

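C1q macrophages of the mouse bladder mucosa were the cells with at least 5 UMIs of C1qa, C1qb and C1qc together, a sum that also exceeded both the keratin sum (Krt5, Krt7, Krt8, Krt15, Krt18 and Krt19) and the collagen sum (Col1a1, Col1a2, Col3a1 and Dcn) of the same cell. A UMI, or unique molecular identifier, marks 1 captured mRNA molecule. The rule was applied to the cells with over 500 detected genes in droplet-based single-cell libraries, and it found 471 of 55399 cells. They were 88 and 82 cells in the 2 healthy libraries, 36 and 155 in the 2 acute libraries and 59 and 51 in the 2 chronic libraries. All libraries came from wild type C57BL/6 mice, 8 weeks old. Cyclophosphamide (CPP), an alkylating drug whose metabolites reach the urothelium with the urine, was injected into the acute group, whose bladders were taken 48 hours later, and into the chronic group in 4 rounds, labelled as 11 days, and the healthy group received none. The study's methods state that males and females were in each group. In the C1q macrophages Xist, the transcript of the inactive X chromosome, had 0 UMIs in the 5 libraries whose tables list it, and the Y-linked Ddx3y had 6 to 39 UMIs in each of the 6. The labels call the 2 libraries of a condition biological replicates without naming the animals in them.

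C1q is the recognition molecule of the classical complement pathway, built from the products of C1qa, C1qb and C1qc. Tissue macrophages are a main source of it and also take up dying cells and debris, signal to other leukocytes with chemokines and present antigen on MHC class II. Long-lived resident macrophages and macrophages that derive from blood monocytes can share this C1q expression and differ in other genes, such as Lyve1, Folr2 and Timd4 for the former and Ccr2, Plac8 and Ly6c2 for the latter.

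The 3 C1q genes lie side by side on the minus strand of mouse chromosome 4, where C1qb spans 136880129 to 136886187, C1qc 136889804 to 136893065 and C1qa 136895917 to 136898803 in GRCm38 (GENCODE vM21). The stretches before the RefSeq starts of C1qb and C1qc (GRCm38.p6, chr4:136886201-136886450 and chr4:136893066-136893164, minus strand) are printed because these genes chose the cells. Bst2 and Oas1a (chr8:71537473-71537722 and chr5:120907526-120907775, minus strand) follow because interferon-response genes are described below. Capitals mark the core GAGGAA of PU.1, the factor that sets up the macrophage lineage, or the core GAAANNGAAA of the interferon-stimulated response element, either one searched on both strands. In Bst2 and Oas1a 2 overlapping matches form 1 run of capitals.
C1qb: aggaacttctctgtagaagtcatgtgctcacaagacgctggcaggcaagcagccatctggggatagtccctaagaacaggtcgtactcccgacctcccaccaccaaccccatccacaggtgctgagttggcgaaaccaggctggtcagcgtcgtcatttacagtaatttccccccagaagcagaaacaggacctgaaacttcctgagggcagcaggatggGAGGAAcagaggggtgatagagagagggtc
C1qc: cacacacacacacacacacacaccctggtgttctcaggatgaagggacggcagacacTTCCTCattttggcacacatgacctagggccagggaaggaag
Bst2: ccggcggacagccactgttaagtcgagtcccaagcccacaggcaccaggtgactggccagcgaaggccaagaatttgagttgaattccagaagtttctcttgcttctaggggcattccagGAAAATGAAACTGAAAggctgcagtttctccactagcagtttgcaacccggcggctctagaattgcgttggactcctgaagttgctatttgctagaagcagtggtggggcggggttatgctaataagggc
Oas1a: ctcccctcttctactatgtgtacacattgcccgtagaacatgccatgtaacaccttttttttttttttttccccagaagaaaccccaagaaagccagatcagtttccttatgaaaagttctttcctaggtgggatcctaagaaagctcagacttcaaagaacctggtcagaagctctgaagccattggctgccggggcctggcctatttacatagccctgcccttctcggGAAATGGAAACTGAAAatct
The C1qb match lay 30 to 25 bases before the start, and the C1qc match, on the other strand, 193 to 188 bases before it. Of the 250 bases before the C1qc start, the 151 nearest to it lie in annotated exons and are not printed, so that its stretch ends 151 bases before the start. GAGGAA occurred in 23.3% of all 32851 windows of 250 bases before a RefSeq start and GAAANNGAAA in 2.98%. Counted by gene, GAGGAA was found before 11 of the 16 resident macrophage genes with a window, against 25.9% of all 27025 genes. GAAANNGAAA was found before 12 of the 24 interferon-response genes with a window, against 3.46% of all genes. These matches describe the letters in the windows and do not show binding.

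The 6 libraries held 54604109 to 111985678 UMIs in 5348 to 15062 barcodes, and C1q macrophages had a median of 2833 to 4815 UMIs per cell against 5549 to 9223 in the other cells. Pairs of libraries shared 36 to 208 barcodes, and 19 C1q macrophages had a barcode that also occurred in another library, though in no case as a C1q macrophage in both. Doublet scores called 17 of the 471 cells, and they were kept. Genes seen in fewer than 0.0958% of the barcodes were missing from the first healthy table and those in fewer than 0.0869% from the first acute table. The expression values below are therefore restricted to the 14348 genes listed in all tables, except for UMIs of Ly6c2, Spp1, Tlr13 and Arg1 near the end.

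Few cells had a C1q sum just below or just above the threshold. No C1q UMI was found in 49995 cells, 1 UMI in 4420 cells and 3 or 4 UMIs in 64 cells, and 456 of the 471 C1q macrophages had 12 or more. Just inside the threshold were 2 cells with 5 UMIs and 4 cells with 6, and just below it were 21 cells with 4 UMIs, none of which exceeded both other sums. All 3 C1q genes were detected in 464 of the 471 cells. C1q made up 1.04 to 1.74% of the UMIs of these cells. Another 121 cells reached 5 C1q UMIs and were left out, 87 by the keratin sum and 34 by the collagen sum. Of the 536 cells with 12 or more C1q UMIs, 456 were C1q macrophages, so the C1q sum alone did not decide membership. The cells were selected on these UMI sums, which are given as a description.

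C1q macrophages were 1.05% and 0.846% of the cells in healthy libraries, 0.522% and 1.12% in acute libraries and 0.524% and 0.954% in chronic libraries. Each injured condition thus had 1 library near the healthy ones and 1 with a share of about 0.52%. The mean share was 0.820% ± 0.422 (SD, n = 2) in acute and 0.739% ± 0.304 (SD, n = 2) in chronic against 0.950% ± 0.147 (SD, n = 2) in healthy libraries. The differences from healthy were -0.131 and -0.211 percentage points (exact two-sided permutation test, p = 1.0 and 0.667, adjusted over 3 comparisons 1.0 and 1.0), and acute and chronic libraries differed by 0.0808 percentage points (p = 1.0, adjusted 1.0). With 2 libraries against 2 the smallest p this test can give is 0.333. Of the cells that were not keratin cells they were 3.72% and 3.80%, 5.26% and 2.52%, and 3.88% and 22.1%, where the last library held only 231 such cells.

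**Figure D1:**
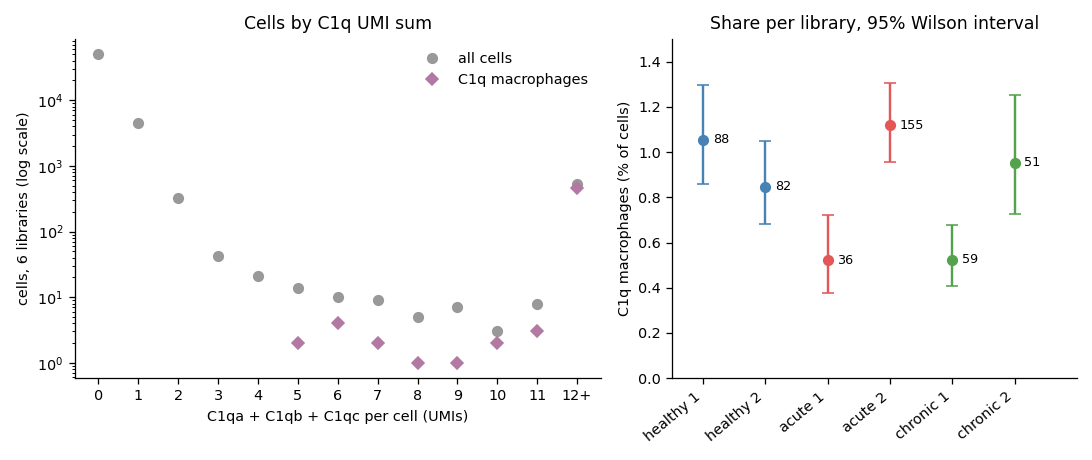
Left, number of cells (log axis, 6 libraries together) by the C1q UMI sum of the cell, for all cells (grey circles) and for the C1q macrophages (purple diamonds), with sums of 12 and more in the last position: cells are many at 0 and 1, few from 3 to 11, and 456 C1q macrophages stand at 12 or more. Right, C1q macrophages as a percentage of the cells of each library with 95% Wilson intervals, which cover counting error only, and the number of cells beside each point: acute replicate 1 and chronic replicate 1 lie lowest, at 0.522% and 0.524%.

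The other genes of these cells were those of macrophages. Lyz2, which encodes lysozyme, stood at 9366 to 17458 CPM (UMI counts scaled to the same total in every library, here of all C1q macrophages of a library together) against 12.6 to 48.6 CPM in all other cells. Csf1r, the receptor of the macrophage growth factor M-CSF, was at 742 and 1088 in healthy, 526 and 511 in acute and 561 and 403 in chronic libraries, in CPM. The chemokine Ccl4 was at 26187 and 1846 in healthy, 9240.4 and 6409.8 in acute and 6905 and 3525 in chronic libraries, in CPM. Ccl4 was thus above the other cells in every library, but it differed more between the 2 healthy libraries than between any 2 injured ones.

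The 20 genes with the highest ratio of mean CPM to the other cells, among those with at least 100 CPM, had ratios of 369 to 802. They included Ccl12 (802-fold), a monocyte-attracting chemokine, and Folr2 (799-fold), a folate receptor of resident macrophages. Ms4a7 (756-fold), Pf4 (619.9-fold), F13a1 (539.6-fold) and Fcna (484-fold) belong to the same tissue macrophage signature. The anaphylatoxin receptors C5ar1 and C3ar1 (562- and 519-fold) and the Fc receptors Fcgr3 and Fcgr1 (506- and 450-fold), which bind complement fragments and antibody, were among them too. Adgre1, which encodes the macrophage antigen F4/80, was 446-fold higher. Because the cells were chosen against the others, none of these ratios was tested.

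**Figure D2:**
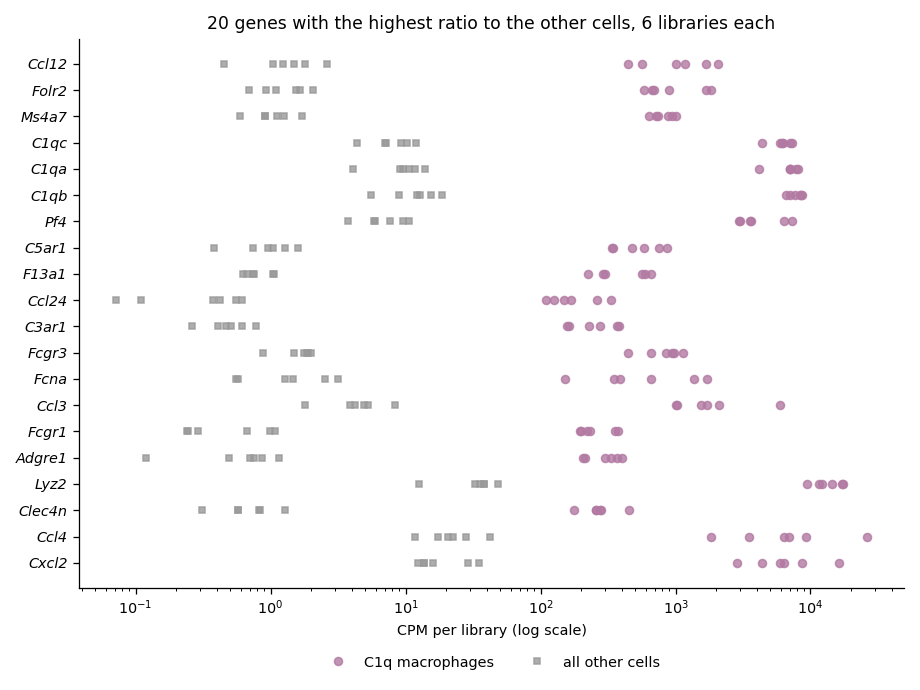
CPM (log axis) of the 20 genes with the highest ratio between C1q macrophages (purple circles) and all other cells (grey squares), 1 point per library. In each gene shown the 6 C1q macrophage values lie above the 6 values of the other cells, by 369-fold (Cxcl2) to 802-fold (Ccl12) in the means, and Ccl4 and Fcna are spread the widest among the libraries.

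Urothelial and mesenchymal marker sums were lower in C1q macrophages than in all other cells but not absent. Lymphocyte and neutrophil marker sums were higher than in all other cells. The summed CPM of 16 urothelial markers was 2842 to 14378 against 30931 to 55519 in the keratin cells (42300 cells with at least 5 keratin UMIs that exceeded both other sums), and at most 2 of the markers were at 0 in a library. The sum of 16 mesenchymal markers was 173 to 1510 CPM against 538 to 10637 CPM in all other cells. That of the 6 measured T and NK lymphocyte markers was 104 to 195 CPM against 9.02 to 83.3 CPM in all other cells. For the 4 measured B lymphocyte markers it was 6.68 to 44.1 CPM against 2.81 to 10.6 CPM. Gzma among the former and Cd79a and Jchain among the latter were at 0 in every library. The 5 measured neutrophil markers summed to 53.5 to 407 CPM against 5.70 to 27.8 CPM in all other cells. The urothelial sum was 9.19 and 24.6% of the keratin cells' value in healthy, 15.6 and 23.9% in acute and 25.9 and 14.5% in chronic libraries. Scaling a gene's keratin cell level by this share estimates the level that urothelial RNA in these cells would carry with it. The estimate takes the share of the urothelial markers for every gene, which was not checked, and leaves out RNA from cells other than keratin cells. It is given below for genes that keratin cells express, and for some of them it exceeds the level found.

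Cells with high MHC class II but no C1q UMI, 467 in all, were compared as the class nearest by antigen presentation. Their Lyz2 was at 481 to 2426 CPM and their Ccl4 at 609 to 2826 CPM, below C1q macrophages on average 10.6- and 5.39-fold. Folr2 and Pf4 were nearly absent from them, with mean CPM of 2.39 and 7.22. The 8 measured of 14 dendritic cell markers summed to 1246 to 2519 CPM there against 201 to 407 CPM in C1q macrophages. The measured markers include H2-DMb2, an MHC class II gene, and these cells were chosen by MHC class II. The difference is therefore partly set by the choice and does not name the cells.

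Within a library the C1q macrophages were not uniform. To compare cells of different depth each was thinned to 1500 UMIs, which left out 8 cells of acute replicate 2, and the UMIs of the resident macrophage genes and of the MHC class II genes were summed per cell. The resident sum had a median of 9 and 29.5 UMIs in healthy, 27 and 8 in acute and 17 and 7 in chronic libraries, with single cells from 0 to 65. The MHC class II sum had a median of 63.5 and 57 UMIs in healthy libraries, 14.5 and 33 in acute and 43 and 27 in chronic libraries, so that all 4 injured medians lay below both healthy ones. In keratin cells the median of the MHC class II sum was 0 in each library.

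The 2 sums were more negatively related in each injured library than in either healthy one, which was not tested. Over the cells of a library, Spearman's rank correlation between them was -0.13 (88 cells) and -0.02 (82 cells) in healthy, -0.38 (36 cells) and -0.69 (147 cells) in acute and -0.75 (59 cells) and -0.56 (51 cells) in chronic libraries. The cells were chosen on their C1q UMIs, and the resident sum also rose with the C1q sum of the thinned cells. That correlation was 0.38 and 0.37 in healthy, 0.66 and 0.48 in acute and 0.55 and 0.55 in chronic libraries. Cells of a library share its capture and its background RNA, and all were thinned to the same depth, so that these are descriptions. In the cells at or above the upper quartile of the resident sum the median MHC class II sum was 50 and 45.5 UMIs in healthy, 7 and 9 in acute and 4 and 3 in chronic libraries. In those at or below its lower quartile it was 68 and 36, 27 and 89, and 108 and 39.5 UMIs. In each injured library the resident-high cells thus had fewer MHC class II UMIs than the resident-low cells, and the resident-low cells of acute replicate 2 and chronic replicate 1 had more MHC class II UMIs than those of either healthy library. The lower quartile lay at 4 and 18.75 resident UMIs in healthy, 15 and 2 in acute and 5 and 3 in chronic libraries. The upper lay at 18 and 39, 42 and 20.5, and 29.5 and 14.5. Groups of different libraries therefore do not cover the same range of the resident sum. These groups are ranges of a sum and not types (0 to 37 cells lay within 1 UMI of a quartile), and they were chosen after the values had been seen.

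**Figure D3:**
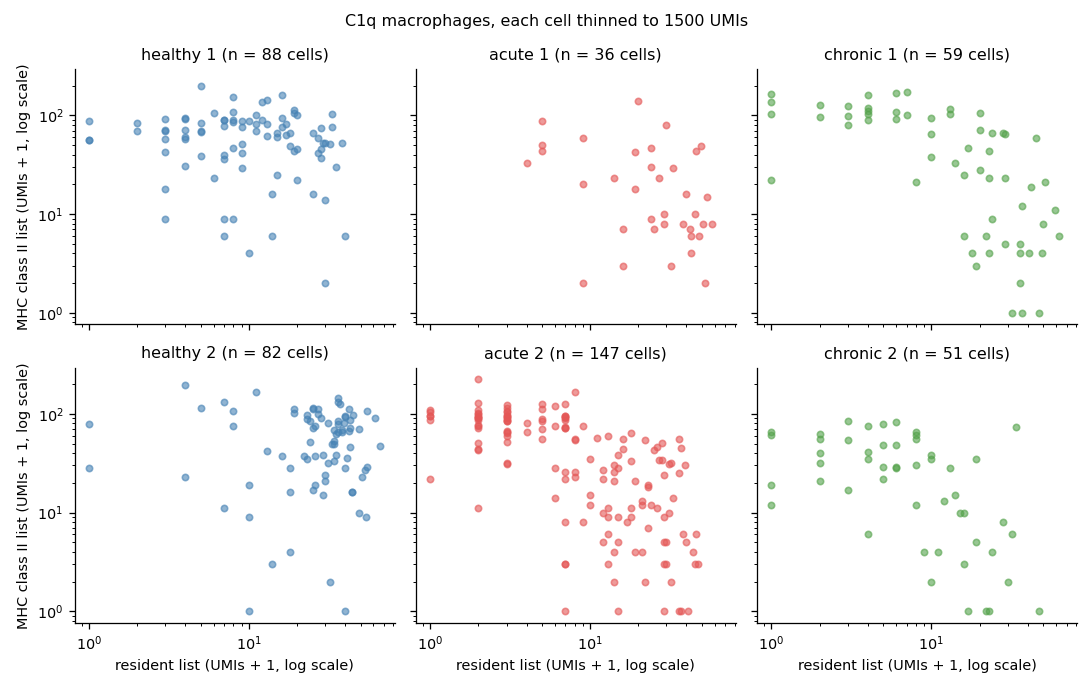
Each point is 1 C1q macrophage thinned to 1500 UMIs, with its summed resident macrophage UMIs on the x axis and its summed MHC class II UMIs on the y axis (both plus 1, log axes), 1 panel per library. Injured libraries hold cells with many resident and few MHC class II UMIs at the lower right, where the median of the cells at or above the upper resident quartile of their own library was 3 to 9 UMIs, and the 2 healthy libraries have few such cells, with medians of 50 and 45.5.

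Single resident genes were detected in part of the cells. At 1500 UMIs per cell, Pf4 was found in 66.7 to 93.9% of the C1q macrophages of a library, Folr2 in 31.4 to 75.6%, Mrc1, the mannose receptor, in 19.6 to 52.4%, Lyve1, a hyaluronan receptor, in 5.68 to 27.8% and Timd4, a phosphatidylserine receptor, in 0 to 10.2%. Without thinning the ranges were 76.1 to 95.1%, 43.9 to 89.0%, 45.1 to 80.5%, 11.4 to 47.2% and 0 to 33.3%. In keratin cells, which should lack these genes, each was found in at most 0.879% of the cells. The proliferation gene Mki67 was found in 0 to 2.44% of the C1q macrophages (0 to 12.5% without thinning) and in 0.120 to 2.53% of the keratin cells.

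For the comparison of conditions the UMIs of the C1q macrophages were summed per library and tested with edgeR's quasi-likelihood test, and levels are given as normalized CPM, which include TMM factors. No gene passed an adjusted p of 0.05 in any comparison (0 of 3273 genes tested, 0% in each). At an unadjusted p under 0.05 there were 80 genes in acute against healthy (2.44%), 49 higher (1.5%) and 31 lower (0.947%). There were 166 in chronic against healthy (5.07%), 80 higher (2.44%) and 86 lower (2.63%), and 70 in acute against chronic libraries (2.14%), 34 higher (1.04%) and 36 lower (1.1%). DESeq2 called 1, 7 and 1 genes and limma voom 0, 1 and 0. The differences below are therefore levels per library, and none is called a change. Without overlap between the libraries, 413 genes lay above and 479 below healthy in acute (12.6% and 14.6%), 507 above and 546 below in chronic libraries (15.5% and 16.7%), and 490 above and 495 below in acute against chronic libraries (15% and 15.1%). On plain CPM without TMM factors the higher genes were 56.8% in place of 46.3%, 66.2% in place of 48.1% and 38.6% in place of 49.7% of these. Both injured conditions were compared with the same 2 healthy libraries, so that the values of the 2 comparisons are not independent. Sums over cells cannot tell less RNA per cell from fewer cells with the RNA.

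The genes with the smallest p-values among those higher in chronic than in healthy libraries were Ly6a, Plac8 and Ms4a4c. Here and below, genes named for small p-values were taken only from those without overlap between the 2 conditions compared. Their lack of overlap in that comparison is therefore no separate result. Ly6a, an interferon-inducible surface protein also known as Sca-1, was at 86.7 and 56.6 in healthy, 342 and 297 in acute and 712 and 575 in chronic libraries. The log2 difference from healthy was 3.15 ± 0.39 (SE) in chronic libraries (edgeR adjusted p = 0.0717) and 2.14 ± 0.38 in acute libraries (adjusted p = 0.350). No library of one condition overlapped another condition. In keratin cells Ly6a was at 80.7 and 167, 251 and 284, and 355 and 159 CPM, and the level carried with urothelial RNA would be 3.80 to 71.9% of that in C1q macrophages, the highest share in healthy replicate 2.

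Plac8, a gene of blood monocytes, was at 21.7 and 24.3 in healthy, 272 and 124 in acute and 331 and 640.3 in chronic libraries. Its log2 difference from healthy was 4.37 ± 0.58 in chronic (adjusted p = 0.0717) and 3.04 ± 0.58 in acute libraries (adjusted p = 0.350). Ms4a4c, another monocyte gene, was at 3.61 and 12.1 in healthy, 69.6 and 129 in acute and 223 and 148 in chronic libraries. Its log2 difference was 4.50 ± 0.63 in chronic (adjusted p = 0.0746) and 3.66 ± 0.64 in acute libraries (adjusted p = 0.350). For both genes every injured library lay above both healthy ones and both chronic libraries above both acute ones. DESeq2 called Ly6a, Plac8 and Ms4a4c in chronic against healthy libraries.

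Ccr2, the chemokine receptor through which monocytes leave the marrow and enter tissue, was at 32.5 and 32.4 in healthy, 63.3 and 61.9 in acute and 159 and 107 in chronic libraries. Its log2 difference from healthy was 2.01 ± 0.43 in chronic (adjusted p = 0.445) and 0.93 ± 0.44 in acute libraries (unadjusted p = 0.0635). Among cells thinned to 1500 UMIs Ccr2 was found in 0 and 0% in healthy, 11.1 and 7.48% in acute and 16.9 and 9.80% in chronic libraries. Without thinning the shares were 5.68 and 7.32% in healthy, 16.7 and 11.6% in acute and 22.0 and 23.5% in chronic libraries. Among thinned keratin cells at most 0.562% had Ccr2. In thinned MHC class II cells without C1q, Ccr2 was found in 2.70 to 34.5%, Plac8 in 21.1 to 69.0% and Ms4a4c in 5.63 to 43.1%. In thinned C1q macrophages the ranges were 0 to 16.9%, 1.14 to 33.3% and 0 to 15.7%. These 3 genes were thus not particular to C1q macrophages. Of the 17 monocyte-derived macrophage genes 10 were tested. Members with few UMIs in the healthy libraries, such as Ms4a4c, Plac8 and Ccr2, passed the low-count filter with the UMIs of the injured libraries, so that the counts below describe the genes that passed and not the list. 5 of them lay above healthy without overlap in acute libraries (Ccr2, Ifitm6, Ms4a4c, Plac8 and Thbs1, background 12.6% of all genes tested) and 3 in chronic libraries (Ccr2, Ms4a4c and Plac8, background 15.5%), with median log2 differences of 0.64 and 0.81 against -0.03 and -0.02 over all genes. Below healthy lay 1 gene in acute libraries (Itgam, background 14.6%), which on plain CPM was 0, and 0 in chronic libraries (background 16.7%). The acute median was 0.22 without acute replicate 2. The chronic median was 0.20 without chronic replicate 2, with 5 of the 10 genes above 0, and 1.34 without chronic replicate 1 and 1.77 without healthy replicate 2.

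Keratin cells held more of this list than C1q macrophages did. Its 12 measured genes summed to 20876 to 33319 CPM in keratin cells against 2369 to 10026 CPM in C1q macrophages, and the level carried with urothelial RNA would be 61.7 to 92.7% of the latter. S100a6, a calcium-binding protein, made up most of the keratin sum with a mean of 27776 CPM, and its carried level would be 79.5 to 109.5% of its level in C1q macrophages. For Thbs1, which encodes thrombospondin-1, it would be 10.6 to 159.6% and for Plac8 0.448 to 18.4%. For Ccr2, Ifitm6 and Ms4a4c it would be at most 3.42, 0.787 and 1.38%.

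Those in the other direction were Retnla and Mgl2, both of the alternative activation that interleukin-4 and interleukin-13 induce. Retnla, a secreted resistin-like protein, was at 708 and 1897 in healthy, 791 and 259.9 in acute and 0 and 17.8 in chronic libraries. The 2 chronic libraries held 3 Retnla UMIs in 110 cells against 665 UMIs in the 170 healthy cells, a ratio of CPM of 0.00810 with a counting interval of 0.00167 to 0.0238 (edgeR adjusted p = 0.0772). That interval takes every UMI as independent. It leaves out the spread between cells and between libraries and is too narrow as a range for the conditions. Both acute libraries held Retnla UMIs. Acute replicate 2 was below both healthy libraries while acute replicate 1 was between them. At 1500 UMIs per cell Retnla was found in 9.09 and 12.2% in healthy, 13.9 and 2.72% in acute and 0 and 3.92% in chronic libraries. Without thinning the shares were 10.2 and 13.4% in healthy, 22.2 and 4.52% in acute and 0 and 5.88% in chronic libraries.

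Mgl2, a galactose-binding lectin also known as CD301b, was at 636 and 801 in healthy, 247 and 327 in acute and 121 and 41.5 in chronic libraries. Its log2 difference from healthy was -3.15 ± 0.51 in chronic (adjusted p = 0.117) and -1.31 ± 0.45 in acute libraries (unadjusted p = 0.0172). The 3 conditions did not overlap, with chronic lowest. Mgl2 was found in 37.5 and 50% in healthy, 19.4 and 19.0% in acute and 15.3 and 3.92% in chronic libraries of thinned cells and in at most 0.345% of keratin cells.

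Fcrls, an Fc receptor-like gene of resident macrophages, was at 332 and 542 in healthy, 158 and 203 in acute and 57.2 and 119 in chronic libraries, with a log2 difference of -2.30 ± 0.46 in chronic libraries (adjusted p = 0.388). The sialyltransferase gene St3gal6 was at 134 and 169.9 in healthy, 57.0 and 84.1 in acute and 12.7 and 41.5 in chronic libraries and the gelatinase Mmp9 at 224 and 392 in healthy, 209 and 104 in acute and 44.5 and 88.9 in chronic libraries. For these 3 genes both acute libraries lay between the healthy and the chronic ones. That both chronic libraries lay below both healthy ones was a condition for naming them.

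Of the 20 resident macrophage genes 19 were tested, and 4 of them lay below healthy without overlap in chronic libraries (Cd163, Igf1, Mgl2 and Selenop, background 16.7%), which on plain CPM was 1, and 1 in acute libraries (Mgl2, background 14.6%). The median log2 differences were -0.59 and -0.12. Both moved with single libraries. The acute median was 0.68 without healthy replicate 2, with 17 of the 19 genes above 0, 0.25 without acute replicate 2, -0.53 without healthy replicate 1 and -0.61 without acute replicate 1. The chronic median was -0.01 without healthy replicate 2, -0.24 without chronic replicate 2. Cd163, the hemoglobin scavenger receptor, was at 130.0 and 348 in healthy, 285 and 148 in acute and 114 and 65.2 in chronic libraries, with a log2 difference of -1.41 ± 0.59 in chronic libraries (unadjusted p = 0.0409). Folr2 at 744 and 1825 in healthy, 1672 and 708 in acute and 852 and 551 in chronic libraries overlapped between conditions, and its healthy libraries stood apart from each other.

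Genes that the tumor suppressor p53 induces after DNA damage were higher in every injured library for most of those with enough UMIs to be tested. Of 24 such genes 13 had enough UMIs, and the other 11 were not tested. Of the 13, in acute libraries 11 lay above both healthy libraries and none below, against a background of 12.6% of all genes tested. 9 of the 13 had an unadjusted p under 0.05 in this direction (background 1.5%). In chronic libraries 10 of the 13 lay above healthy (background 15.5%) and 6 had an unadjusted p under 0.05 (background 2.44%). The median log2 differences were 1.48 and 1.42, and the 13 genes were those with enough UMIs, which the injured libraries helped to decide. Without healthy replicate 2 they were 1.21 and 0.98. Genes with an unadjusted p under 0.05 numbered 6 in acute libraries without healthy replicate 2 or acute replicate 2, and 10 in chronic libraries without healthy replicate 1.

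Cdkn1a, the cell cycle inhibitor p21, was at 885 and 263 in healthy, 3109 and 1989.8 in acute and 2232 and 1956 in chronic libraries. Its log2 difference was 2.15 ± 0.57 in acute (unadjusted p = 0.00460) and 1.86 ± 0.56 in chronic libraries (unadjusted p = 0.00950). At 1500 UMIs it was found in 53.4 and 23.2% in healthy, 80.6 and 77.6% in acute and 78.0 and 84.3% in chronic libraries of C1q macrophages. The same shares in keratin cells were 20.3 and 19.5% in healthy, 39.6 and 26.8% in acute and 42.3 and 32.0% in chronic libraries, higher in each injured library than in the healthy ones as well.

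Bax, which permeabilizes mitochondria in apoptosis, was at 249 and 202 in healthy, 798 and 747 in acute and 604 and 605 in chronic libraries. Its log2 difference was 1.77 ± 0.34 in acute (adjusted p = 0.350) and 1.42 ± 0.34 in chronic libraries (adjusted p = 0.614). The replicates of Bax were close within each condition and the conditions did not overlap. Ccng1, a cyclin that restrains p53, was at 47.0 and 36.4 in healthy, 190.0 and 156 in acute and 114 and 124 in chronic libraries, and Phlda3, an inhibitor of AKT signaling, at 21.7 and 52.6 in healthy, 285 and 146 in acute and 318 and 160.1 in chronic libraries.

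Keratin cells also had more of these transcripts after CPP, with Bax at 146 and 158, 345 and 289, and 256 and 249.8 CPM and Ccng1 at 91.7 and 111, 428 and 167, and 209 and 252 CPM in healthy, acute and chronic libraries. The level carried with urothelial RNA would be 5.66 to 19.1% of the Bax level in C1q macrophages and up to 74.3% of the Ccng1 level, a larger share than for Bax. For Phlda3 it would be 9.51 to 63.2%, highest in the healthy libraries, for Cdkn1a 3.27 to 25.8%, and for Gdf15, a stress-induced cytokine that keratin cells hardly expressed, at most 0.395%. Gdf15 was at 314 and 52.6 in healthy, 969 and 767 in acute and 362 and 711 in chronic libraries.

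The test of whether a gene's difference was larger in C1q macrophages than in keratin cells of the same libraries called 0 of 3273 genes for acute and 0 for chronic against healthy (edgeR, 83 genes or 2.54% and 117 genes or 3.57% at an unadjusted p under 0.05). Phlda3 had the strongest such difference among the p53 targets, 2.07 on the log2 scale in acute (unadjusted p = 0.00180) and 2.16 in chronic libraries (unadjusted p = 0.00150).

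Interferon-response genes also lay higher after CPP. Of 31 genes 23 were tested and 8 were not, and low members such as Oas1a could pass the filter with the UMIs of the injured libraries, so that these counts too describe only the genes that passed. In acute libraries 13 of the 23 lay above both healthy libraries (background 12.6%) and none below, and 11 had an unadjusted p under 0.05 (background 1.5%). In chronic libraries 13 lay above (background 15.5%) and 1, Irf8, below, and 12 had an unadjusted p under 0.05 (background 2.44%). The median log2 differences were 1.04 and 1.27. They were 2.20 and 2.35 without healthy replicate 1 and 0.65 and 0.88 without healthy replicate 2, where 5 and 4 genes had an unadjusted p under 0.05. Without acute replicate 2 such genes numbered 4 in acute, and without chronic replicate 1 the chronic median was 0.84 with 6 such genes.

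Irf7, the master regulator of the type I interferon response, was at 83.1 and 24.3 in healthy, 386 and 589 in acute and 375 and 373 in chronic libraries. Its log2 difference was 3.16 ± 0.53 in acute (adjusted p = 0.350) and 2.77 ± 0.54 in chronic libraries (adjusted p = 0.358), and DESeq2 called it in both. At 1500 UMIs Irf7 was found in 9.09 and 3.66% in healthy, 27.8 and 34.7% in acute and 30.5 and 31.4% in chronic libraries of C1q macrophages (6.10 to 58.3% without thinning), and in 0.212 to 5.39% of keratin cells. By share of cells, every injured library was above both healthy libraries. Irf7 was also among the genes named for small p-values in both comparisons, so that its lack of overlap by level is no separate result.

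Bst2, the virus-tethering protein tetherin whose promoter is printed above, was at 498 and 267 in healthy, 1102 and 1658 in acute and 890.2 and 1156 in chronic libraries. Ifi27l2a, an abundant interferon-induced gene, was at 1633 and 1638 in healthy, 5255 and 4148 in acute and 3058 and 5964 in chronic libraries. Oas1a, an enzyme that senses double-stranded RNA and whose promoter is also printed, was at 18.1 and 16.2 in healthy, 25.3 and 69.3 in acute and 76.3 and 124 in chronic libraries. In each of these genes the injured libraries lay above both healthy ones, with log2 differences in chronic libraries of 1.42 ± 0.43, 1.46 ± 0.43 and 2.52 ± 0.62 (unadjusted p = 0.00962, 0.00852 and 0.00298).

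Not all interferon-response genes shared this order. Isg15, a ubiquitin-like protein, was at 1268 and 89.0 in healthy, 1045 and 703 in acute and 680.4 and 362 in chronic libraries, and Rsad2, the antiviral enzyme viperin, at 488 and 28.3 in healthy, 386 and 235 in acute and 496 and 71.1 in chronic libraries. Both were highest or nearly highest in healthy replicate 1 and lowest in healthy replicate 2. Irf7 and Bst2 were low in the keratin cells, where the level carried with urothelial RNA would be at most 3.30% and 2.16% of that in C1q macrophages. The interferon-response sum of keratin cells was 807 and 588 CPM in healthy, 905 and 1486 in acute and 1021 and 1023 in chronic libraries. In thinned MHC class II cells without C1q the median sum was 4.5 and 4, 5 and 9, and 9 and 7.5 UMIs. In thinned C1q macrophages it was 10 and 8, 21.5 and 14, and 16 and 15 UMIs. Higher values after CPP were thus found in these other classes as well.

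**Figure D4:**
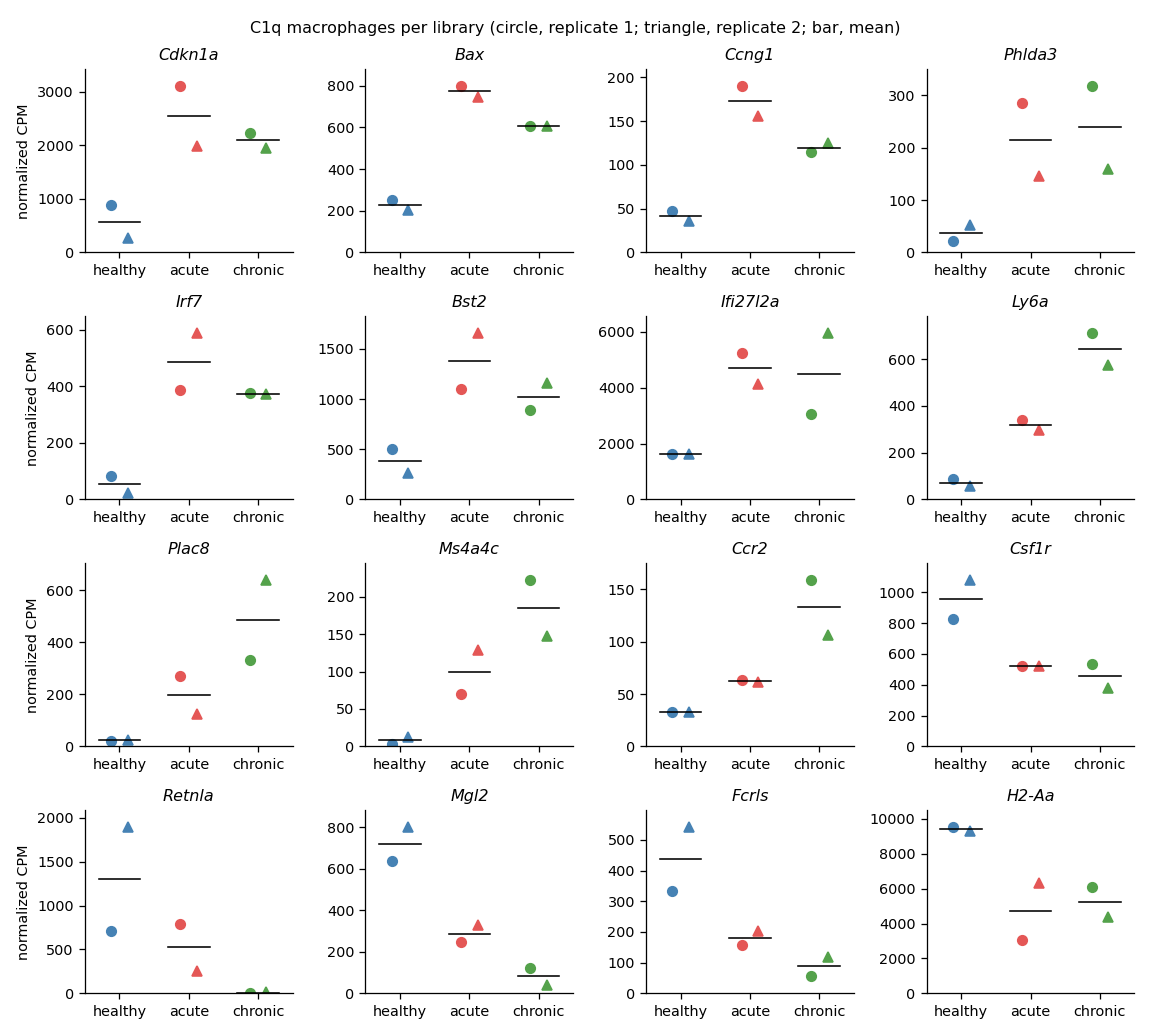
Normalized CPM of 16 genes in the C1q macrophages of each library (linear axes from 0; circles, replicate 1; triangles, replicate 2; bars, mean of 2 libraries). Cdkn1a to Ccr2 are higher in all 4 injured than in both healthy libraries, Csf1r, Mgl2, Fcrls and H2-Aa are lower, and Retnla is at 0 and 17.8 in the chronic libraries.

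The MHC class II presentation genes lay lower after CPP. Of 13 genes 7 were tested, and 5 of them (Cd74, H2-Aa, H2-Ab1, H2-DMa and H2-Eb1) lay below both healthy libraries in acute (background 14.6%) and in chronic libraries (background 16.7%), with none above. None had an unadjusted p under 0.05, and the median log2 differences were -0.70 and -0.72. The acute median was -0.31 without acute replicate 1 and -1.20 without acute replicate 2, and the chronic one was -1.10 without chronic replicate 1. H2-Aa, the alpha chain of I-A, was at 9542 and 9281 in healthy, 3071 and 6318 in acute and 6098 and 4363 in chronic libraries. Cd74, the invariant chain that guides class II molecules, was at 28826 and 22397 in healthy, 10245 and 20064 in acute and 20042 and 11134 in chronic libraries. These levels are sums over all C1q macrophages of a library, resident-high and resident-low cells together.

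Among the chemokine and cytokine receptors 19 of 24 were tested, and 8 lay below healthy without overlap in acute libraries (background 14.6%) and 8 in chronic libraries (background 16.7%), with Ccr2 the exception above healthy in each. Csf1r in normalized CPM was at 827 and 1080.2 in healthy, 519 and 522 in acute and 534 and 379 in chronic libraries, with log2 differences of -0.87 ± 0.35 (unadjusted p = 0.0356) and -1.06 ± 0.35 (unadjusted p = 0.0158). Among the receptors below healthy in both conditions were also Ifngr1, Il10rb, Il6ra and Tgfbr2, which bind interferon gamma, interleukin-10, interleukin-6 and TGF-beta.

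Chemokine levels mostly overlapped between conditions. Of 19 genes 14 were tested, and none lay apart from healthy in chronic libraries (background 15.5% above and 16.7% below) and 1, Ccl12, above it in acute libraries (background 12.6% above and 14.6% below). Ccl3 was at 6573 and 1003 in healthy, 2058 and 1581 in acute and 1634 and 966 in chronic libraries. Cxcl2, a neutrophil attractant, was at 17972 and 2852 in healthy, 6319 and 6021 in acute and 4146 and 8157 in chronic libraries, and Ccl2, which attracts CCR2-bearing monocytes, at 5486 and 2007 in healthy, 6699 and 2081 in acute and 2607 and 2063 in chronic libraries. In Ccl3, Ccl4 and Cxcl2 healthy replicate 1 was the highest of all libraries, and healthy replicate 2 was the lowest or, for Ccl3, the lowest but one. Ccl5 was at 2549.9 and 16.2 in healthy, 114 and 119 in acute and 82.7 and 107 in chronic libraries, a spread that rests on healthy replicate 1, and in healthy replicate 2 the carried level would be 41.8% of it. Tnf at 1224 and 243 in healthy, 507 and 230.2 in acute and 801 and 403 in chronic libraries and Il1b at 1192 and 80.9 in healthy, 190.0 and 1344 in acute and 432 and 972 in chronic libraries also differed several-fold between the 2 healthy libraries. The first principal component of the library sums, with 30.7% of the variance, placed healthy replicate 1 and chronic replicate 2 on one side and healthy replicate 2 and chronic replicate 1 on the other, and the acute libraries between them. The second, with 22.4% of the variance, placed the healthy libraries at -13.5 and -15.7, the acute ones at -7.36 and 1.76 and the chronic ones at 13.6 and 21.2, without overlap between conditions.

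**Figure D5:**
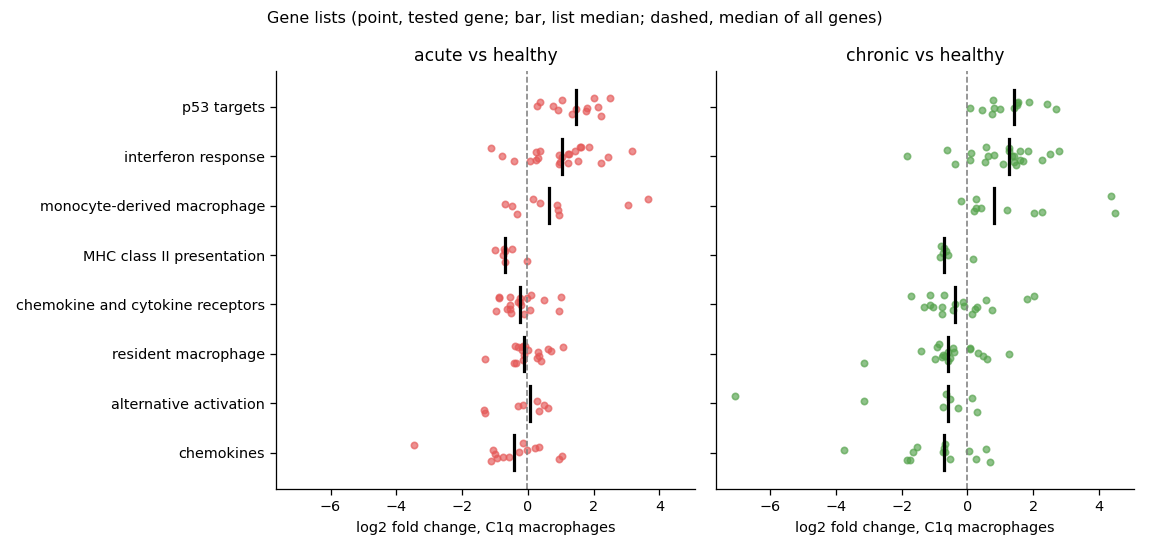
Log2 differences from healthy in the C1q macrophages (x axis) of the tested genes of 8 lists, 1 point per gene, for acute (left) and chronic libraries (right), with black bars at the list medians and a dashed line at the median of all genes (-0.03 and -0.02). p53 targets (medians 1.48 and 1.42) and interferon-response genes (1.04 and 1.27) lie to the right, MHC class II genes (-0.70 and -0.72) to the left, and the leftmost point, Retnla in chronic libraries, rests on 3 UMIs and is no bound.

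The remaining lists had genes on both sides of healthy. The shares of all genes tested were 12.6% above and 14.6% below healthy in acute and 15.5% above and 16.7% below in chronic libraries. Of the 24 lysosome genes tested, 3 lay above and 1 below healthy in acute and 2 above and 6 below in chronic libraries, with medians of -0.03 and -0.15. On plain CPM the chronic lysosome counts turned to 5 above and 2 below. Of the 15 Fc and pattern recognition receptors tested, 3 lay above (Fcgr4, Msr1 and Myd88) and 3 below (Clec4n, Fcgr3 and Ly96) in chronic libraries, but 4 above and 0 below on plain CPM. Of the 12 lipid handling genes 4 lay above (Abcg1, Lgals3, Plin2 and Soat1) and 2 below (Abca1 and Apoe) in chronic libraries, and 5 above and 1 below on plain CPM. Apoe, the most abundant of them, was at 50222 and 35578 in healthy, 31722 and 39348 in acute and 23844 and 21799 in chronic libraries. Of the 12 growth factor genes tested, Lgals9 lay above healthy in both injured conditions and Areg in acute libraries, and Hbegf and Igf1 below it in chronic libraries, where plain CPM gave 2 above and 1 below. Of the 14 macrophage genes the study names, 13 were tested, and Lgals9 lay above healthy in both conditions, Cklf above it in acute and Igf1 below it in chronic libraries, where plain CPM gave 3 above and 0 below.

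Of the genes lower in acute than in healthy libraries the first by p-value was Stmn1, a microtubule-destabilizing protein of dividing cells, at 299.8 and 328 in healthy, 101 and 144 in acute and 209.8 and 213 in chronic libraries. Its log2 difference was -1.33 ± 0.34 in acute libraries (unadjusted p = 0.00409), whereas its keratin cell level was 265 and 271, 508 and 428, and 331 and 204 CPM, highest in acute libraries. The level carried with urothelial RNA would be 77.1 and 72.6% of that in the C1q macrophages of the acute libraries and 9.04 and 20.2% in healthy ones. Arhgap9, a GTPase-activating protein of leukocytes, was at 97.5 and 125 in healthy, 50.7 and 29.7 in acute and 57.2 and 53.4 in chronic libraries and Pou2f2, the lymphoid and myeloid factor Oct-2, at 93.9 and 109 in healthy, 38.0 and 37.1 in acute and 50.9 and 77.1 in chronic libraries. Fam177a and Ctdnep1 were the other genes of this direction.

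Between acute and chronic libraries the first genes by p-value after Retnla were Mgl2 and, lower in acute libraries, Tuba1b, an alpha-tubulin. Tuba1b was at 429.8 and 473 in healthy, 361 and 220.3 in acute and 610.4 and 1179.8 in chronic libraries, a log2 difference of -1.64 ± 0.44 (unadjusted p = 0.00492), with a carried level of 3.47 to 24.4%. Vcam1, an adhesion molecule, was at 213 and 97.1 in healthy, 101 and 193 in acute and 57.2 and 35.6 in chronic libraries, higher in both acute than in both chronic libraries. Gm42418 and AY036118, also among the first 5, are models that overlap ribosomal RNA, and Banf1, Wdr89, Capn1 and Rnaset2b were the others lower in acute libraries.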

How the data were processed

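Bladder mucosa of healthy, acutely and chronically CPP-treated mice was profiled with a droplet-based 3' assay, in 2 libraries per condition. Per the labels and the study's methods, the authors aligned the reads to mm10 and counted them with Cell Ranger. They deposited raw UMI counts per gene and cell, 1 table per library, without normalization. The count tables were used as deposited, and the doublet removal that the study's methods describe was not repeated.

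Cells with over 500 genes were kept. C1q macrophages and keratin cells were taken by UMI sums (at least 5 C1q or keratin UMIs, above both other sums), and MHC class II cells without C1q had at least 20 UMIs of Cd74, H2-Aa, H2-Ab1 and H2-Eb1. Doublets were scored with Scrublet (scanpy 1.11.5) and called at 0.8% per 1000 cells, used only as an alternative. The table of healthy replicate 1 ends within its last line, and that gene was left out. Only the 14348 genes common to the 6 tables entered, mitochondrial and ribosomal protein genes left out, and 73 genes of the lists and marker sets that were not in all tables entered no test. Of the latter, UMIs are given for Xist, Ly6c2, Spp1, Tlr13 and Arg1 only.

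UMIs were summed per library over the cells of a class. Conditions were compared with edgeR 4.0.16 in R 4.3.3 (TMM, filterByExpr, quasi-likelihood test, all 6 libraries in 1 fit without covariates), with Benjamini-Hochberg adjustment over 3273 genes and a threshold of 0.05. The 13 genes of the rule were in the fit but not among these. The interaction with keratin cells had the library as a block. The biological coefficient of variation was 0.335. Levels are CPM with TMM factors for conditions and plain CPM against other cells, and SE is that of the log2 difference. DESeq2 1.42.0 and limma 3.58.1 (voom) were alternatives. Libraries did not overlap where both of one condition were above both of the other. Shares of cells were compared with exact permutation tests, and 95% Wilson intervals cover counting error only. The 36 to 155 cells per library limit the precision of every sum. The edgeR comparison of acute with healthy libraries was also run on simulated counts. Those were drawn with the same spread for all genes, unlike real counts, and nothing is concluded from them for these libraries.

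Genes are named by a rule: the markers and rule genes, members of the 22 lists, and for each comparison and direction the genes past the threshold, or where fewer than 3 passed, the 5 with the smallest unadjusted p among those with at least 50 CPM and no overlap. The members and lists were chosen with earlier results of these data known. Values of some list members are not reported here. The study's methods state that the 6 libraries were processed and sequenced as batches, and the labels do not give the batch of a library, so that no batch term was fitted and batch and condition cannot be told apart. The p-values measure the spread between these libraries only.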

Additional observations from a re-analysis of the deposited data

Results flagged for a closer look

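Cells with at least 5 C1q UMIs that the rule left out numbered 121 over the 6 libraries, 87 of them with a keratin sum and 34 with a collagen sum that was at least as high as the C1q sum. They were not analyzed as macrophages here.

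3 list genes that the table of acute replicate 1 does not hold, and that were therefore not compared, had a higher CPM in both chronic than in both healthy libraries. Ly6c2, the monocyte antigen Ly6C, had 79 UMIs in the C1q macrophages of the 2 chronic libraries (33 and 46) against 1 and 0 in the healthy libraries, and its reads can be shared with the near-identical Ly6c1. Spp1, which encodes osteopontin, had 35 UMIs (25 in 4 cells and 10 in 4 cells) against 5 and 0, and 20 in 13 cells of acute replicate 2. Tlr13, a receptor for bacterial ribosomal RNA, had 12 UMIs (6 and 6) against 6 and 3, from 110 chronic and 170 healthy cells. These 3 differences were not tested. Arg1 had 11 UMIs in 3 cells of chronic replicate 2 and 0 in chronic replicate 1 and both healthy libraries.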

How the results depend on the processing

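The alternatives were a C1q sum of at least 10, a C1q sum above 5 times the other sums, over 1000 genes with under 5% mitochondrial UMIs, doublet calls removed, another normalization, no low-count filter, DESeq2, limma voom, the replicate block and each library left out. Of the shares, the denominator without keratin cells gave differences of 0.131, 9.22 and -9.09 percentage points for acute minus healthy, chronic minus healthy and acute minus chronic, where chronic replicate 2 alone decided the last 2. Leaving out 1 library gave -0.429 to 0.168, -0.426 to 0.00329 and -0.217 to 0.379 percentage points, and the sign turned without acute replicate 1 or 2 or chronic replicate 1.

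Against 0 genes in the 3 comparisons, the test without a low-count filter called 19, 33 and 4 of 12834 genes, DESeq2 1, 7 and 1, and limma voom 0, 1 (Ly6a) and 0. DESeq2 called Irf7 in acute, Gm26870, Irf7, Ly6a, Mgl2, Ms4a4c, Plac8 and Retnla in chronic against healthy, and Retnla in acute against chronic libraries. Leaving out 1 library gave 0 to 7, 0 to 6 and 0 to 6 genes, 2, 6 and 0 of them without healthy replicate 1, 1, 4 and 0 without healthy replicate 2, 7, 5 and 6 without acute replicate 1, 0, 4 and 0 without acute replicate 2 and none without a chronic library, where a lone library was taken to vary like the others. Ly6a, Ms4a4c, Plac8 and Retnla were called in chronic against healthy libraries without acute replicate 1 and again without acute replicate 2, and Irf7 in acute against healthy without healthy replicate 1 or acute replicate 1. The interaction with keratin cells gave 0 to 1 genes for each injury without 1 library, and 1 gene for chronic against healthy with all other cells in place of keratin cells. The replicate block called 0 genes in each comparison (60, 131 and 60 at an unadjusted p under 0.05). Same-numbered libraries did not deviate together (correlations of -0.0262, -0.293 and 0.0906), so that the numbers pair no libraries. Spearman's rank correlation of log CPM was 0.743 between the healthy and 0.737 between the chronic libraries. It was higher between healthy replicate 1 and chronic replicate 2 (0.773) and between healthy replicate 2 and chronic replicate 1 (0.786). Between the same-numbered healthy and chronic libraries it was 0.702 and 0.716. The cause of the shifts under the alternatives was not tested, beyond the number of genes or libraries that an alternative leaves.

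No log2 difference of the genes named for their small p-values turned its sign under the 15 alternatives. These genes were chosen without overlap between the libraries compared, so their signs could hardly turn, and nothing is concluded from this. The other log2 differences of single genes were not recomputed. Medians of lists under the same alternatives, added after the data were seen, were 1.21 to 1.94 and 0.98 to 1.60 for p53 targets in acute and chronic libraries, 0.65 to 2.20 and 0.84 to 2.35 for interferon-response genes and -1.20 to -0.31 and -1.19 to -0.49 for MHC class II genes, and 0.22 to 0.91 and 0.20 to 1.77 for monocyte-derived macrophage genes. The resident list ranged from -0.61 to 0.68 and -0.87 to -0.01, and chemokines from -0.95 to 1.00 and -1.23 to 0.32.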

Other observations

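Within each library, the C1q macrophages at or above the upper quartile of the resident sum also held more interferon-response and lysosome UMIs than those at or below the lower quartile, at 1500 UMIs per cell. The median interferon-response sum was 13 against 8 and 12 against 4 UMIs in healthy, 23 against 14 and 21 against 11 in acute and 20 against 16 and 20 against 14 in chronic libraries. The median lysosome sum was 21 against 15 and 29.5 against 18, 41 against 21.5 and 29 against 14, and 31 against 25 and 26 against 13.5 UMIs. The p53 target sum was 2 against 4 and 1 against 2 UMIs in healthy libraries, 9 against 4 and 5 against 5 in acute and 7 against 5 and 10 against 5 in chronic libraries. The C1q sum, on which the cells were chosen, was higher at the upper quartile as well. Its median was 28 against 19 and 30 against 20 UMIs in healthy libraries. In acute libraries it was 35.5 against 15.5 and 28 against 16, and in chronic ones 35 against 18 and 20 against 12. In keratin cells the median sums were 0 to 1 UMI for interferon-response genes, 3 to 5 for lysosome genes and 2 to 4 for p53 targets. These comparisons were chosen after the values were seen and were not tested.

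Of the other lists, 18 macrophage identity genes were tested, and 2 lay above and 4 below healthy in acute and 1 above and 6 below in chronic libraries, among the latter Adgre1, Csf1r and Cx3cr1. Of 13 MHC class I genes H2-T23 and Psmb8 lay above healthy in chronic and none apart from it in acute libraries. Of 19 inflammatory genes Relb lay below healthy in both conditions and Ier3 in chronic libraries. Among the complement genes C1qbp lay above healthy in both conditions, C5ar1 above it in chronic and Itgam below it in acute libraries. Of 13 genes of apoptotic cell clearance, which also hold C1qbp, Cd36, a scavenger receptor, lay below healthy in both, Lrp1 below it in acute and above it in chronic libraries, and Abca1 below it in chronic libraries. Of 10 iron handling genes Hmox1 lay above healthy in acute and Slc48a1 in chronic libraries, while Hpgd lay below in both and Cd163 in chronic libraries. Of 8 cell cycle genes 4 lay below healthy in acute libraries (Birc5, Cenpa, Stmn1 and Ube2c), and in chronic libraries Tubb5 lay above and Stmn1 below. Of 26 immediate-early genes 2 lay above and 2 below healthy in acute and 0 above and 5 below in chronic libraries, and of 8 matrix genes Mmp9 and Tgfbi lay below healthy in both and Thbs1 above it in acute libraries. Of 8 alternative activation genes Mgl2 lay below healthy in both and Klf4 and Retnla in chronic libraries. The shares of all genes given above for libraries that do not overlap apply to these counts. On plain CPM, in chronic libraries 3 macrophage identity genes lay above and 5 below healthy, 5 MHC class I genes above, 0 clearance genes below, and 1 immediate-early gene above and 2 below, and in acute libraries 3 immediate-early genes lay above and 0 below. No gene of these lists passed an adjusted p of 0.05 in the edgeR fit of all 6 libraries with the low-count filter, while some did under other settings, among them Retnla and Mgl2 in chronic against healthy libraries.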
